A study of Mus musculus with 9 samples.

Results

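The genes described here are 10 polypeptide N-acetylgalactosaminyltransferases (GalNAc transferases), the enzymes that start mucin-type O-glycans. They are Galnt1, Galnt2, Galnt7, Galnt9, Galnt10, Galnt11, Galnt13, Galnt14, Galnt16 and Galnt18, chosen by gene symbol from the 31053 genes listed in the count tables. RNA was measured by single-nucleus RNA sequencing of the pooled cortex and hippocampus of 9 male C57BL/6 mice, with 1 library per mouse and 3 mice per group. The groups were young AAV-EGFP (5 months old), aged AAV-EGFP (19 months old) and aged AAV-B3GNT3 (19 months old). All mice, the controls included, had received an adeno-associated virus (AAV) of the PHP.V1 capsid by retro-orbital injection 8 weeks earlier. A short CLDN5 promoter, active in endothelial cells, drove EGFP, a fluorescent protein, alone in the AAV-EGFP groups, and EGFP together with B3GNT3, a glycosyltransferase that extends core 1 O-glycans, in the AAV-B3GNT3 group; the RNA of the transgene was not analysed here. The design asks what differs with age under the control virus, and what differs in aged mice when the virus carries B3GNT3. Per the authors' methods, aged mice came from the National Institute on Aging and young mice from Jackson Laboratories. Differences with age therefore cannot be told apart from differences of supplier.

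GalNAc transferases sit in the Golgi and move N-acetylgalactosamine from its UDP-linked donor onto serine or threonine residues of a passing protein. In GRCm38 coordinates the genes that the results turn on lie at chr5:110544355-110621380 (Galnt9, plus strand), chr8:57523828-57653032 (Galnt7, minus strand) and chr2:54436317-55118309 (Galnt13, plus strand). Some family members act on bare peptide, whereas others, Galnt7 and Galnt10 among them, prefer peptide that already carries a GalNAc residue. Later enzymes then build the sugar outwards, beginning with C1galt1, which makes the core 1 structure. Because the family has many members with overlapping substrates, a tissue is described by which of them its cells use. Galnt9 and Galnt13 are known as brain-enriched members, and Galnt13 is the closest relative of the widely used Galnt1. Galnt2, Galnt14 and Galnt16 form another subgroup, while Galnt9 and Galnt18 belong together in a further one.

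After filtering, 70304 of 77823 barcodes were kept, and libraries held 47332047 to 79964605 unique molecular identifiers (UMIs), with medians of 2982 to 5281 UMIs per kept nucleus. Clusters were named from marker genes. Among the named classes, 9 had at least 10 nuclei in every library and are described here, whereas choroid plexus epithelium and ependymal cells did not. Each marker list of the 9 classes was highest in its own class, with no marker at 0 there. Between 2.55% and 11.8% of a library's nuclei lay in clusters that could not be named. Levels are given as CPM, the share of a class in a library written as UMIs per 1000000 and scaled by the trimmed mean of M-values. The counts can contain free RNA from broken cells. An estimate from marker genes put it at 7.2 to 14.8% of UMIs in excitatory neurons, 15.9 to 28.2% in astrocytes, 20.4 to 35.5% in oligodendrocytes. The estimate was 22.3 to 68.7% for microglia and 22.0 to 42.4% for brain endothelial cells (BECs). The estimate rests on the profile of all barcodes, so it cannot separate free RNA from doublets or from a low level of a class's own. Low levels of a neuronal gene in glia therefore have to be read beside this estimate.

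The members differed in where they were found. Galnt13 was highest in inhibitory neurons, at 689 ± 107 CPM (mean ± SD over 9 libraries), followed by oligodendrocyte precursors at 592 ± 52.1 CPM and excitatory neurons at 390 ± 46.4 CPM. Neurons named as inhibitory subclasses differed widely in Galnt13, as given below. Inhibitory neurons exceeded precursors in 8 of 9 libraries, by 0.21 ± 0.25 (SD) on the log2 scale, which did not pass the test (adjusted p = 0.144, two-sided exact sign-flip permutation test, adjusted over 80 comparisons of neighbouring classes). The step from precursors down to excitatory neurons was seen in 9 of 9 libraries, at 0.60 ± 0.14 (adjusted p = 0.0223, the smallest value this exact test returned). In mature oligodendrocytes the level of Galnt13 was 83.2 ± 31.6 CPM and in astrocytes 59.4 ± 23.4 CPM. Of these glial UMIs, 99% and 100% were within the estimate for free RNA, against 13% in the precursors.

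The microglia class also held other macrophages: at a higher clustering resolution, 1346 nuclei stayed named and 950, with Mrc1 and F13a1 among their leading genes, could not be named, and the summed level of 5 border macrophage markers in the class was 365 to 1488 CPM. Galnt1 had its highest level in astrocytes, at 239 ± 40.2 CPM, and exceeded the next class, microglia at 176 ± 20.3 CPM, in 9 of 9 libraries (adjusted p = 0.0223, exact test). This step was no longer past the threshold with free RNA subtracted (adjusted p = 0.172, exact test) or with finer clustering (0.0595). Its lowest levels were in inhibitory neurons, at 69.7 CPM, and in excitatory neurons, at 64.6 ± 5.25 CPM. Galnt7 was highest in oligodendrocytes, at 259 ± 51.9 CPM, ahead of microglia at 172 ± 21.6 CPM in 9 of 9 libraries (adjusted p = 0.0223, exact test, but 0.0551 with free RNA subtracted and 0.0781 with finer clustering). Astrocytes were at the other end for this glycopeptide-preferring enzyme, at 52.2 ± 10.8 CPM.

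Oligodendrocyte precursors held the highest levels of both Galnt10 and Galnt16. Galnt10 was at 166 ± 38.0 CPM there and at 97.3 ± 31.5 CPM in microglia, and the difference of 0.79 ± 0.33 (log2) was seen in 9 of 9 libraries (adjusted p = 0.0223, exact test, and 0.024 with finer clustering, but 0.0651 with free RNA subtracted). In mature oligodendrocytes Galnt10 was at 11.1 ± 5.50 CPM. Galnt16 kept a high level in both stages of this lineage, at 186 ± 44.8 CPM in precursors and 142 ± 45.1 CPM in mature oligodendrocytes, with precursors higher in 9 of 9 libraries (adjusted p = 0.0223, exact test).

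Galnt9 and Galnt14 were genes of neurons. Galnt9 was at 142 ± 40.3 CPM in excitatory neurons and 33.5 ± 7.25 CPM in inhibitory neurons, a step of 2.02 ± 0.43 (log2) in 9 of 9 libraries (adjusted p = 0.0223, exact test). Every other class lay between 11.3 and 37.3 CPM, and 87 to 100% of those UMIs were within the estimate for free RNA. For Galnt14 the order was reversed, with 164 ± 19.8 CPM in inhibitory and 122 ± 27.4 CPM in excitatory neurons, higher in inhibitory neurons in 9 of 9 libraries (adjusted p = 0.0223, exact test).

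Galnt18 was highest in neurons, astrocytes and BECs. Its level was 349 ± 72.2 CPM in excitatory neurons, 365 ± 158 CPM in astrocytes, 255 ± 38.7 CPM in inhibitory neurons and 239 ± 63.0 CPM in BECs, and no step between neighbours among these passed the test. BECs exceeded microglia in 8 of 9 libraries (adjusted p = 0.0368, exact test), and pericytes, the other vessel-wall class, came after microglia at 70.0 CPM. Galnt11, which glycosylates members of the LDL receptor family, varied least, with class means between 47.1 CPM in oligodendrocytes and 75.6 CPM in microglia and no neighbouring classes that differed past the threshold.

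Galnt2 was almost uncounted, with 25 UMIs in all excitatory neurons of the 9 libraries and 0 in BECs, which allows at most 3 UMIs there by counting error. On chromosome 8 the gene lies, but for its last bases, inside the annotated span of Gm20388 on the same strand (GRCm38, GENCODE vM21). Galnt2 ends at 124345724 and Gm20388 at 124345722, and reads that fit both genes cannot be assigned to either. Gm20388 was at 482 ± 99.9 CPM in excitatory neurons and 734 CPM in BECs. The level of Galnt2 RNA is therefore unknown from these counts, and the gene passed the filter on low counts in no class.

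**Figure D1:**
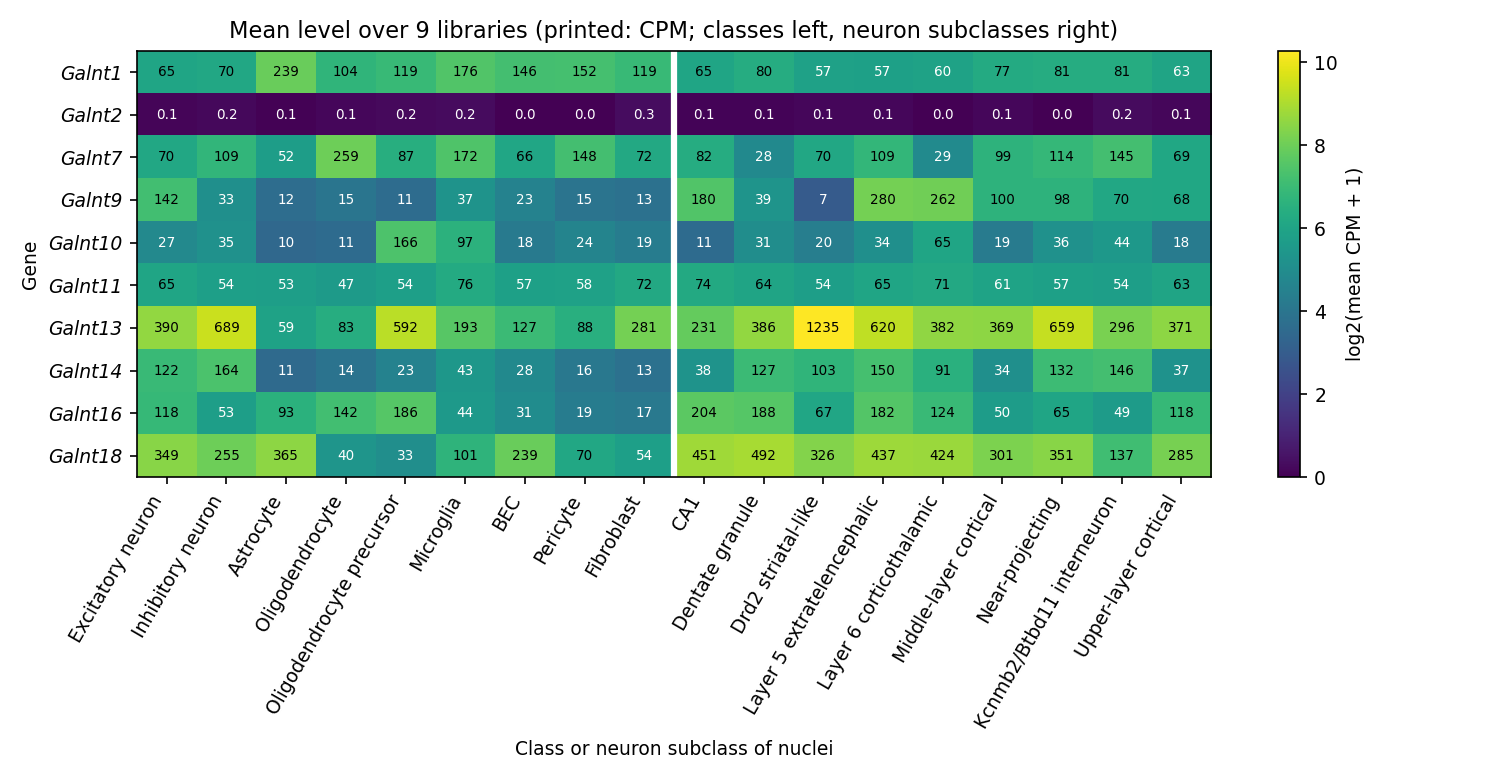
Mean level of each member over 9 libraries in 9 classes (left) and 9 neuron subclasses (right); colour shows log2(mean CPM + 1) and the printed numbers are mean CPM. Galnt13 peaks in Drd2 striatal-like neurons at 1235 CPM, Galnt9 in layer 5 and layer 6 projection neurons at 280 and 262 CPM, Galnt7 in oligodendrocytes at 259 CPM, and Galnt2 lies near 0 throughout.

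Genes differ in length, and longer genes can give more UMIs in nuclei, so members were compared with each other mainly per kilobase. Per kilobase of gene span, Galnt1 led in astrocytes (2.94 ± 0.49 CPM per kb), microglia (2.16 ± 0.25), pericytes (1.86 ± 0.51) and BECs (1.79 ± 0.26). Galnt7 led in oligodendrocytes at 2.0 ± 0.40 CPM per kb, Galnt16 in their precursors at 1.65 ± 0.40, Galnt9 in excitatory neurons at 1.84 ± 0.52, and Galnt11 in inhibitory neurons at 1.22 ± 0.11 and fibroblasts at 1.63 ± 0.25. Divided by exon length instead, the lead passed to Galnt18 in excitatory neurons (135 CPM per kb of exon), inhibitory neurons, astrocytes, microglia and BECs, to Galnt13 in precursors and fibroblasts, and to Galnt7 in pericytes. Among the classes, oligodendrocytes had the same leading member, Galnt7, on both scales, and among the subclasses Drd2 striatal-like neurons did, with Galnt13. Whether intronic reads were counted is not stated, so which length applies to these 3′ counts, if either does, is unknown.

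Neuron subclasses separated the members further. Galnt13 had its highest level in Drd2 striatal-like neurons, with values of 1114, 1259 and 1163 CPM in young AAV-EGFP, 1331, 1553 and 1217 CPM in aged AAV-EGFP and 1172, 1127 and 1176 CPM in aged AAV-B3GNT3 mice. These libraries all lay above the highest value in any of the other subclasses, which was 819 CPM in near-projecting neurons. CA1 pyramidal neurons had the lowest range, from 189 to 291 CPM. Drd2 striatal-like neurons numbered 3702 nuclei, beside 7911 in the whole inhibitory class. Subclasses were named at a higher clustering resolution than classes, so they are not a strict part of a class. In the Drd2 striatal-like cluster the 7 excitatory neuron markers summed to 707 CPM and the 5 inhibitory neuron markers to 622 CPM. Per kilobase of its span, Galnt13 was at 1.81 CPM in Drd2 striatal-like neurons and at 0.43 CPM in the interneuron cluster described below. On this scale excitatory neurons were at 0.57 CPM and oligodendrocyte precursors at 0.87 CPM. Galnt9 was highest in layer 5 extratelencephalic neurons, at 280 ± 59.3 CPM, and layer 6 corticothalamic neurons, at 262 ± 59.6 CPM, and lowest in Drd2 striatal-like neurons, at 6.6 CPM. Galnt18 was highest in dentate granule neurons, at 492 ± 82.6 CPM, and CA1 neurons, at 451 CPM. Galnt16 was also high in these hippocampal neurons, at 204 ± 40.4 CPM in CA1 and 188 ± 48.5 CPM in dentate granule neurons, and lowest in an interneuron cluster, at 49.3 CPM, and in middle-layer neurons, at 49.6 CPM. That interneuron cluster, led by Kcnmb2, Nxph1 and Btbd11, had 137 CPM of Galnt18, the lowest of the subclasses, and 145 CPM of Galnt7, the highest. It carried the Pvalb interneuron markers Btbd11 (542 CPM) and Kcnc2 (2831 CPM) beside Grin3a (583 CPM) of the Sst interneuron list, and is given no narrower name. The layer 5 cluster expressed Bcl11b (469 CPM) and Vat1l (99 CPM) of its list, and also Tshz2 (582 CPM) of the near-projecting list.

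Over the 18 classes and subclasses, which share nuclei, the protein-coding genes with the pattern closest to Galnt9 were Shank1 (Pearson's r = 0.915), Tdrd5 (0.905) and Kcnh7 (0.903), among 12147 genes with at least 10 CPM somewhere. Galnt13 was closest to Plekha6 (r = 0.920) and Trnp1 (0.887). Galnt1 was closest to Senp1 (r = 0.962), Serhl and Sat1 (each 0.952), and Galnt14 to Usp29 (r = 0.940). For Galnt18 the closest genes were Arntl (r = 0.879), Wdr47 and Hk1, for Galnt16 Grik4 (r = 0.856), Lrp1b and Soga3, for Galnt11 Jpt1 (r = 0.829), Minpp1 and Prkag2, for Galnt10 Gm3468 (r = 0.810), Ache and Lpcat1, and for Galnt7 Micu2 (r = 0.801), BC005624 and Adam19. These values are descriptions without a test.

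With age, Galnt9 and Galnt7 fell in excitatory neurons. Galnt9 was at 171, 186 and 199 CPM in young AAV-EGFP and at 89.0, 140 and 99.3 CPM in aged AAV-EGFP mice, so that no aged library reached a young one. The log2 fold change was -0.76 (SE 0.18, adjusted p = 0.0224, edgeR's quasi-likelihood test). Galnt7 was at 83.1, 93.0 and 84.1 CPM in young and 67.1, 56.4 and 45.0 CPM in aged AAV-EGFP mice, again without overlap, with a log2 fold change of -0.63 (SE 0.14, adjusted p = 0.0146, edgeR). These were 2 of the 9 members tested in excitatory neurons, where 6.63% of all genes were called lower. The median change of the 9 members was -0.30, beside 0.02 for all genes. The estimated share of free RNA in these neurons was 13.9 to 14.8% in young, 7.2 to 9.9% in aged AAV-EGFP and 11.7 to 14.7% in aged AAV-B3GNT3 mice. Marker lists also differed in these neurons. The oligodendrocyte list, whose cells have the highest level of Galnt7, ranged from 205 to 230 CPM in young, 103 to 157 CPM in aged AAV-EGFP and 175 to 210 CPM in aged AAV-B3GNT3 mice. The inhibitory neuron list ranged from 20.3 to 27.3, 14.1 to 19.2 and 20.2 to 27.3 CPM, and the excitatory neurons' own list from 1571 to 1810, 1405 to 1556 and 1414 to 1544 CPM, so that these 3 lists were lower in aged than in young AAV-EGFP mice without overlap. Both member changes were as large with free RNA subtracted, at -0.83 (adjusted p = 0.0229) for Galnt9 and -0.64 (adjusted p = 0.0193) for Galnt7. The other members in excitatory neurons did not pass. Galnt11 (-0.30, adjusted p = 0.0675) and Galnt18 (-0.42, adjusted p = 0.103) were lower in each aged AAV-EGFP library than in any young one, whereas Galnt13 (0.08), Galnt1 (0.06) and Galnt10 (-0.03) lay close to 0. Among 16942 genes tested with age in this class, 5469 were at an unadjusted p under 0.05 by edgeR. The share of all genes without overlap between the groups was not determined. The call for Galnt9 was lost when 1 of 3 libraries was left out, at adjusted p = 0.0556 (young AAV-EGFP replicate 2), 0.0876 (young AAV-EGFP replicate 3) and 0.0804 (aged AAV-EGFP replicate 3). That for Galnt7 needed young AAV-EGFP replicate 3 (adjusted p = 0.0587 without it) and aged AAV-EGFP replicate 2 (0.0586 without it).

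Within neuron subclasses Galnt9, Galnt7 and Galnt14 were called. Galnt9 fell in upper-layer cortical neurons from 90.6, 89.1 and 108 CPM in young to 37.8, 45.7 and 37.3 CPM in aged AAV-EGFP mice, a log2 fold change of -1.25 (SE 0.18, adjusted p = 0.0051, edgeR). It also fell in middle-layer neurons by 0.97 (adjusted p = 0.0179), in layer 6 corticothalamic neurons by 0.64 (adjusted p = 0.0140) and in layer 5 extratelencephalic neurons by 0.58 (adjusted p = 0.0494) on the log2 scale. Galnt7 fell in middle-layer neurons, from 117, 162 and 140 CPM to 91.0, 87.6 and 63.2 CPM (log2 fold change -0.80, SE 0.16, adjusted p = 0.0118), and in upper-layer neurons (-0.65, SE 0.13, adjusted p = 0.0184). Galnt14 fell in middle-layer neurons from 77.0, 39.9 and 39.8 CPM to 29.0, 28.0 and 9.47 CPM (log2 fold change -1.27, SE 0.36, adjusted p = 0.0446).

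The oligodendrocyte list was lower with age without overlap in these subclasses too. It ranged from 209 to 228 CPM in young and 110 to 156 CPM in aged AAV-EGFP mice in upper-layer neurons, from 164 to 208 and 86.3 to 133 CPM in middle-layer neurons, from 134 to 199 and 74.6 to 121 CPM in layer 6 and from 214 to 297 and 141 to 213 CPM in layer 5 neurons. The inhibitory neuron list in upper-layer neurons ranged from 20.9 to 23.2 and 12.7 to 15.8 CPM, and the excitatory neuron list in layer 5 neurons from 1305 to 1569 and 1189 to 1297 CPM. With free RNA subtracted, Galnt9 in upper-layer neurons was at -1.34 (adjusted p = 0.00571) and Galnt7 at -0.85 in middle-layer (0.0156) and -0.65 in upper-layer neurons (0.0237).

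In all, 7 of 81 pairs of member and subclass were called, each of them lower, beside 2.42% of gene and subclass pairs overall. By subclass, 2 of 9 members were called lower in upper-layer neurons (3.49% of all genes), 3 in middle-layer neurons (4.53%), 1 in layer 6 corticothalamic neurons (5.23%) and 1 in layer 5 extratelencephalic neurons (1.44%). The calls for Galnt9 in upper-layer and Galnt7 in middle-layer neurons held in each of 18 alternative fits, those that leave out 1 library included. The call for Galnt9 in layer 5 was lost when any of the 6 young or aged AAV-EGFP libraries or aged AAV-B3GNT3 replicate 1 was left out, with adjusted p up to 0.202 (young AAV-EGFP replicate 3), and with the replicate number as a block (0.0694) or free RNA subtracted (0.0520). Galnt14 in middle layers lost its call on omission of any young AAV-EGFP library, of aged AAV-EGFP replicates 2 or 3, or of aged AAV-B3GNT3 replicates 1 or 2, with adjusted p up to 0.167 (young AAV-EGFP replicate 1), and by DESeq2 (0.134), with only the groups compared (0.0664) and with free RNA subtracted (0.0920). The remaining 3 calls all needed young AAV-EGFP replicate 3 (adjusted p on its omission = 0.0567 for Galnt9 in layer 6, 0.0696 for Galnt9 in middle layers, 0.0861 for Galnt7 in upper layers) and, in the same order, aged AAV-EGFP replicate 3 (0.0538, 0.0602 and 0.0697). Galnt9 in middle layers needed young AAV-EGFP replicate 2 as well (0.0502), and Galnt7 in upper layers aged AAV-EGFP replicate 2 (0.0704).

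In the other subclasses no member was called. In CA1 neurons the log2 fold change of Galnt9 was -0.36 (SE 0.15, adjusted p = 0.225) and that of Galnt7 was 0.10 (SE 0.15). In dentate granule neurons Galnt9 was at -0.93 (SE 0.23, adjusted p = 0.0620) and in near-projecting neurons, a deep-layer cortical type, at -0.07 (SE 0.23). Whether the change differed between subclasses was not tested.

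**Figure D2:**
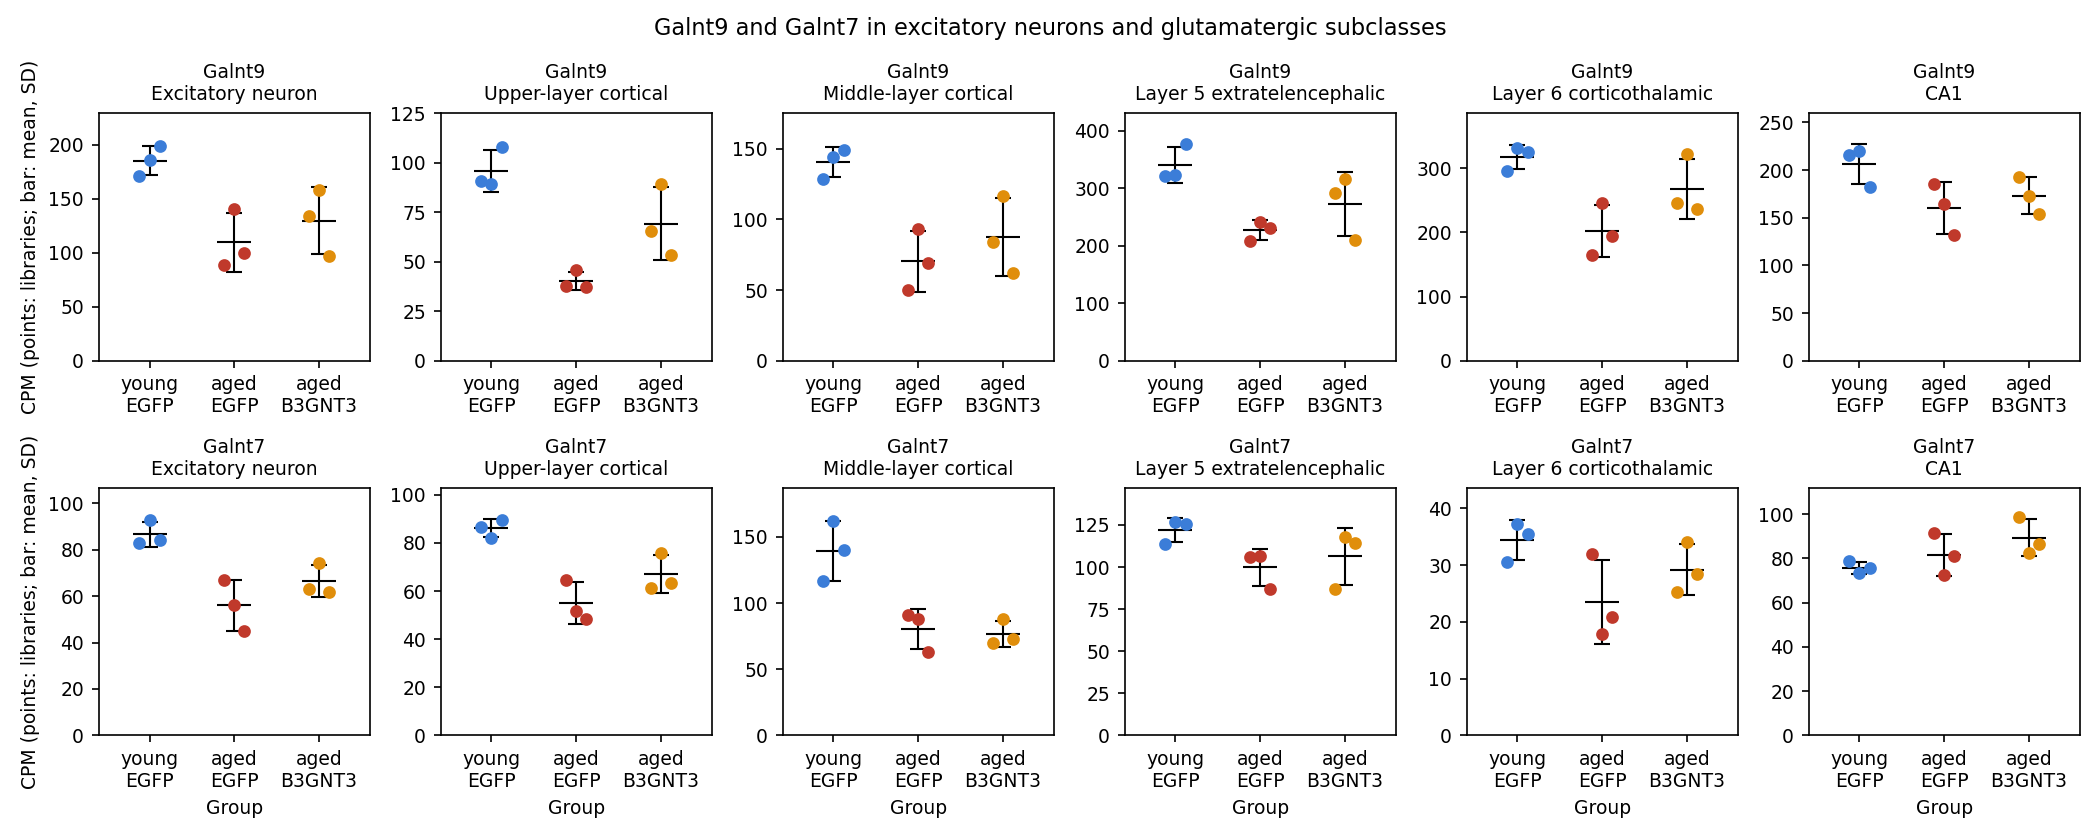
CPM of Galnt9 (top) and Galnt7 (bottom) in excitatory neurons and 5 glutamatergic subclasses; points are libraries and bars show the mean and SD of 3 mice per group. In upper-layer neurons Galnt9 lies between 89.1 and 108 CPM in young and between 37.3 and 45.7 CPM in aged AAV-EGFP mice.

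Because Galnt7 and Galnt9 moved in the same neurons, the 250 bases before their start sites are shown, taken from the RefSeq promoter table for GRCm38.p6, which had entries for 7 of the 10 members. Capitals mark the GC box, searched as GGGCGG on both strands, the letters of a motif bound by Sp1-family factors. Galnt7 (minus strand) has 1 listed start, and its window, chr8:57653056-57653305, lies before the annotated gene. Galnt9 (plus strand) has 2, with windows at chr5:110544105-110544354, before the gene, and chr5:110603255-110603504, in an intron.
Galnt7: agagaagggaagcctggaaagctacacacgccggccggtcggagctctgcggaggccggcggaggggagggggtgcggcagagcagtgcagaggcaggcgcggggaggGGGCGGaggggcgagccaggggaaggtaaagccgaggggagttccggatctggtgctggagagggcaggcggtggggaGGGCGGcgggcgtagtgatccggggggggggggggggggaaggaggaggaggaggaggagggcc
Galnt9, outer start: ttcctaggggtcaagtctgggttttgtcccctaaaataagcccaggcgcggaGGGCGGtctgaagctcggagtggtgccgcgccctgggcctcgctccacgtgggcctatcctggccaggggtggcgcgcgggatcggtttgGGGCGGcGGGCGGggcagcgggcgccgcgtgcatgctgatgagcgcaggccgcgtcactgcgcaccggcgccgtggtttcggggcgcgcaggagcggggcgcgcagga
Galnt9, inner start: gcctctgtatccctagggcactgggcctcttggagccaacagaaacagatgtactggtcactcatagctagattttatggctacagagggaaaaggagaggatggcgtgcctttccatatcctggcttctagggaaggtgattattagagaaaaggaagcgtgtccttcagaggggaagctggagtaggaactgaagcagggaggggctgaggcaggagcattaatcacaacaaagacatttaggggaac
The Galnt7 window held 2 GC boxes and the outer Galnt9 window 3, while 32.7% of 32851 promoter windows of this length held at least 1. Their GC contents were 73.6% and 72.4%, with 19 and 32 CpG dinucleotides, beside medians of 52.4% and 6 over all windows. The inner Galnt9 window had 50% GC, 2 CpG and no GC box. None of the 3 windows shown held TATAAA (12.4% of all windows) or CCAAT (33.8%), on either strand and with no overlap between motifs. These traits were not particular to Galnt7 and Galnt9. GC boxes also lay in windows of Galnt13 (2, 73.6% GC, 23 CpG), Galnt14 (3, 66.4% GC) and Galnt11 (2, 54% GC). These members were not called in excitatory neurons as a class. The windows of Galnt10 and Galnt16 and the other Galnt11 window held 0, and no window of any member held TATAAA. These matches describe the letters of the windows, and no binding was measured.

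In glia, the members called lower with age were mostly those whose UMIs lay within the estimate for free RNA. In oligodendrocytes, Galnt13 was at 90.2, 140 and 96.6 CPM in young and 52.5, 57.4 and 39.1 CPM in aged AAV-EGFP mice (log2 fold change -1.14, SE 0.21, adjusted p = 0.0036, edgeR). Galnt18 was at 66.1, 50.2 and 52.3 CPM against 21.9, 23.4 and 12.1 CPM (-1.57, SE 0.31, adjusted p = 0.0046), and Galnt14 at 20.6, 20.6 and 17.3 CPM against 7.58, 10.4 and 5.23 CPM (-1.36, SE 0.32, adjusted p = 0.0103). None of these genes overlapped between the groups, and the share of all genes without overlap was not determined. The called genes were 3 of 9 members tested, where 10.5% of all genes in oligodendrocytes were called lower.

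In astrocytes 4 of 9 members were called lower, beside 6.94% of all genes. Galnt13 was at 78.3, 101 and 77.2 CPM in young and 39.9, 36.6 and 28.0 CPM in aged AAV-EGFP mice (log2 fold change -1.31, SE 0.17, adjusted p = 0.0008, edgeR). The changes of the others were -1.27 for Galnt14 (SE 0.30, adjusted p = 0.0158), -1.25 for Galnt9 (SE 0.36, adjusted p = 0.0363) and -0.59 for Galnt7 (SE 0.16, adjusted p = 0.0307). Galnt14 and Galnt9 were at 19.2 CPM or less in every astrocyte sum.

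Neuronal RNA in the glial sums was read from marker lists. The summed level of the 7 excitatory neuron markers in oligodendrocytes ranged from 318 to 325 CPM in young, 205 to 386 CPM in aged AAV-EGFP and 251 to 279 CPM in aged AAV-B3GNT3 mice, with no marker at 0. In astrocytes the same list ranged from 274 to 306, 168 to 352 and 193 to 223 CPM. The 5 inhibitory neuron markers ranged from 184 to 371, 142 to 602 and 366 to 458 CPM in oligodendrocytes and from 317 to 381, 335 to 543 and 397 to 443 CPM in astrocytes. The ranges of young and aged AAV-EGFP mice overlapped for both neuron lists in both classes. Lists of other glia moved without overlap. The 6 oligodendrocyte markers in astrocytes ranged from 450 to 568 CPM in young, 236 to 384 CPM in aged AAV-EGFP and 358 to 399 CPM in aged AAV-B3GNT3 mice. The 5 oligodendrocyte precursor markers in oligodendrocytes ranged from 102 to 182, 53.8 to 92.8 and 75.0 to 119 CPM, and Galnt13 is high in precursors. In astrocytes their own 6 markers, from 5433 to 6120 CPM in young and 6343 to 7368 CPM in aged AAV-EGFP mice, and the list of 6 pericyte markers, from 149 to 180 and 206 to 242 CPM, were higher with age. In oligodendrocytes the lists of fibroblasts and border macrophages, at 17.5 CPM or less, were lower with age. The part of these cells in the glial changes was not tested. The estimated share of free RNA in astrocytes was 24.1 to 28.2% in young, 15.9 to 24.6% in aged AAV-EGFP and 20.8 to 23.3% in aged AAV-B3GNT3 mice, and in oligodendrocytes 25.9 to 32.3%, 20.4 to 35.5% and 26.4 to 29.2%.

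Subtracting that estimate removed 99 to 100% of the UMIs of Galnt13, Galnt14 and Galnt18 in oligodendrocytes and of Galnt13, Galnt14 and Galnt9 in astrocytes, and none of them could then be tested. Galnt7 in astrocytes lost 45% of its UMIs and was at -0.48 (SE 0.19, adjusted p = 0.184). The part of free RNA in the glial changes was not tested beyond this subtraction. Without doublet removal the astrocyte changes were -0.46 for Galnt13 (adjusted p = 0.148), -0.65 for Galnt9 (0.172), -0.50 for Galnt7 (0.0960) and -0.08 for Galnt14 (0.883), none of them called. Of the glial calls, Galnt13 in both classes and Galnt18 in oligodendrocytes held without each single library, though Galnt18 was lost with finer clustering (adjusted p = 0.107). Galnt14 in oligodendrocytes was lost without aged AAV-EGFP replicate 3 (adjusted p = 0.0501) and without doublet removal (0.0709). Galnt14 in astrocytes was lost without young AAV-EGFP replicate 1 (0.0612), aged AAV-EGFP replicate 2 (0.0594) and aged AAV-EGFP replicate 3 (0.0847). In astrocytes the call for Galnt9 was lost on omission of any of the 6 libraries compared except aged AAV-EGFP replicate 2, and that for Galnt7 of any except aged AAV-EGFP replicate 1, with adjusted p up to 0.183 and 0.166, both for aged AAV-EGFP replicate 3. Without the upper limit of 5000 genes per nucleus both were lost too (adjusted p = 0.0504 for Galnt9 and 0.0637 for Galnt7), as was Galnt9 with only the groups compared (0.0543).

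**Figure D3:**
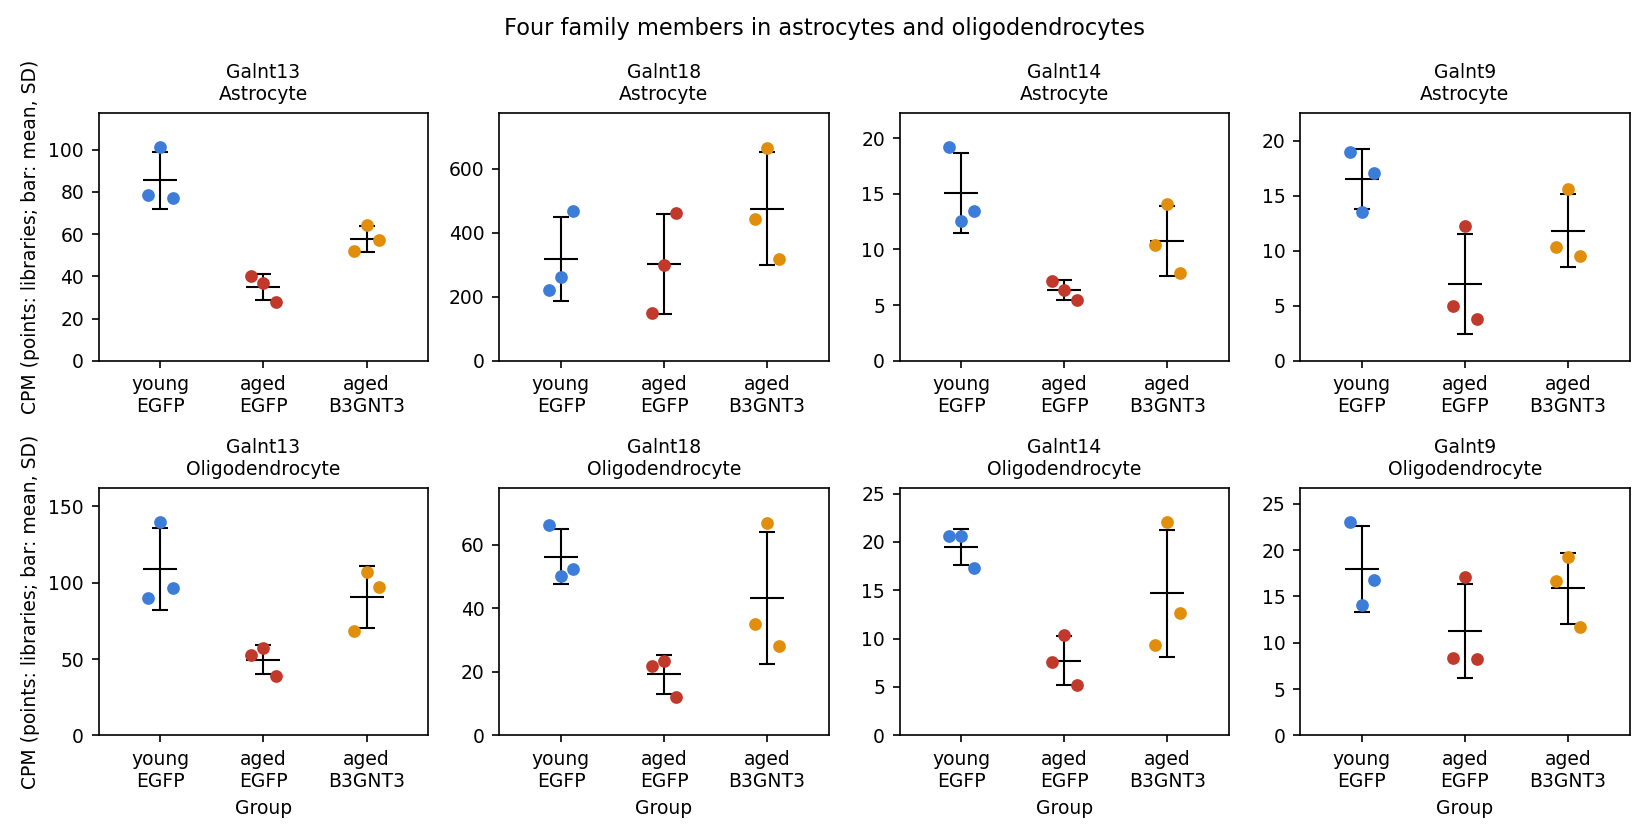
CPM of 4 members in astrocytes (top) and oligodendrocytes (bottom); points are libraries and bars show the mean and SD of 3 mice per group, with a scale of its own for each panel. In oligodendrocytes Galnt13 lies at 90.2 CPM or more in young and at 57.4 CPM or less in aged AAV-EGFP mice, whereas Galnt18 in astrocytes overlaps between all groups.

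The members with a high level of their own in glia were not called with age. Galnt1 in astrocytes was at 202, 206 and 290 CPM in young and 213, 289 and 297 CPM in aged AAV-EGFP mice (log2 fold change 0.20, SE 0.17). Galnt7 in oligodendrocytes was at 231, 295 and 334 CPM against 180, 213 and 245 CPM, with overlapping groups (-0.43, SE 0.17, adjusted p = 0.0843). In oligodendrocyte precursors Galnt13 (0.15, SE 0.13), Galnt16 (-0.14, SE 0.24) and Galnt10 (-0.34, SE 0.22) did not pass the test (adjusted p of 0.578, 0.815 and 0.449).

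The other classes gave no call for a member by edgeR. In inhibitory neurons 0 of 9 members passed (3 at an unadjusted p under 0.05, 0 by DESeq2), beside 1.63% of all genes called lower. In oligodendrocyte precursors 0 of 9 passed (2 at an unadjusted p under 0.05, and 1 by DESeq2, Galnt18, chosen here for that call), beside 0.038% of all genes called lower. Of 14269 genes tested in inhibitory neurons, 3449 were at an unadjusted p under 0.05 and DESeq2 called 843. Of 10534 in precursors these counts were 1835 and 95. In microglia 0 of 9 and in BECs 0 of 5 passed, none at an unadjusted p under 0.05 and none by DESeq2, and 0% of all genes were called lower in either class, with 1 gene called higher in BECs.

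BECs are the cells the virus addresses, and 782 of their nuclei were counted, 53 to 126 per library. Without scaling for gene length, Galnt18 was their most counted member, at 343, 277 and 165 CPM in young and 160, 304 and 230 CPM in aged AAV-EGFP mice (log2 fold change -0.17, SE 0.31, adjusted p = 0.882). Galnt1 was at 186, 128 and 135 CPM against 139, 169 and 127 CPM (-0.04, SE 0.27). Galnt7 rested on 3 to 27 UMIs per library and was at -0.77 (SE 0.44, adjusted p = 0.521), and Galnt11 on 7 to 18 UMIs at 0.78 (SE 0.40, adjusted p = 0.462). Neither change passed the threshold, and the parts of depth and of spread between mice in this were not tested.

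In aged mice, AAV-B3GNT3 was set against AAV-EGFP. The same 3 aged AAV-EGFP libraries enter both comparisons, which are therefore not independent, and the values are given side by side without a test of their relation. Of 59 pairs of member and class, 3 were called, all higher, beside 3.08% of all gene and class pairs called in either direction. In oligodendrocytes Galnt13 rose from 52.5, 57.4 and 39.1 CPM to 68.1, 107 and 97.3 CPM (log2 fold change 0.88, SE 0.21, adjusted p = 0.0212, edgeR), and Galnt18 rose from 21.9, 23.4 and 12.1 CPM to 35.0, 66.8 and 28.0 CPM (1.19, SE 0.31, adjusted p = 0.0300). These were 2 of 9 members, beside 4.24% of all genes called higher. In astrocytes Galnt13 rose from 39.9, 36.6 and 28.0 CPM to 51.8, 64.3 and 57.0 CPM (0.74, SE 0.18, adjusted p = 0.0312), as 1 of 9 members, beside 1.88% of all genes.

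These are again members whose glial UMIs lay within the free RNA estimate. The ranges of the neuron marker lists in the aged groups, given before, overlapped in both classes. The oligodendrocyte list in astrocytes (236 to 384 and 358 to 399 CPM) and the precursor list in oligodendrocytes (53.8 to 92.8 and 75.0 to 119 CPM) overlapped at the edge, with higher lowest and highest values with AAV-B3GNT3. The classes' own lists were lower with AAV-B3GNT3 without overlap, at 4664 to 5162 CPM in astrocytes and, in oligodendrocytes, at 10155 to 11385 CPM against 13096 to 14893 CPM. Their part in the 3 rises was not tested. None of the 3 rises could be tested after subtraction, and the part of free RNA in them was not tested otherwise. Without doublet removal none was called, at 0.70 (adjusted p = 0.0699) and 0.75 (0.135) for Galnt13 and Galnt18 in oligodendrocytes and 0.04 (0.934) for Galnt13 in astrocytes. With finer clustering both oligodendrocyte calls were lost (adjusted p = 0.205 for Galnt13 and 0.476 for Galnt18), and with only the groups compared Galnt18 in oligodendrocytes (0.0532) and Galnt13 in astrocytes (0.0530) were. All 3 were also lost without aged AAV-EGFP replicate 3 (adjusted p = 0.0774, 0.103 and 0.106, in the same order) and without aged AAV-B3GNT3 replicate 2 (0.0929, 0.129 and 0.155). Galnt18 in oligodendrocytes and Galnt13 in astrocytes were lost without aged AAV-EGFP replicate 2 as well (0.0509 and 0.0894), and the latter without aged AAV-B3GNT3 replicate 1 (0.0507) and without the upper limit of 5000 genes per nucleus (0.46, adjusted p = 0.305).

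**Figure D4:**
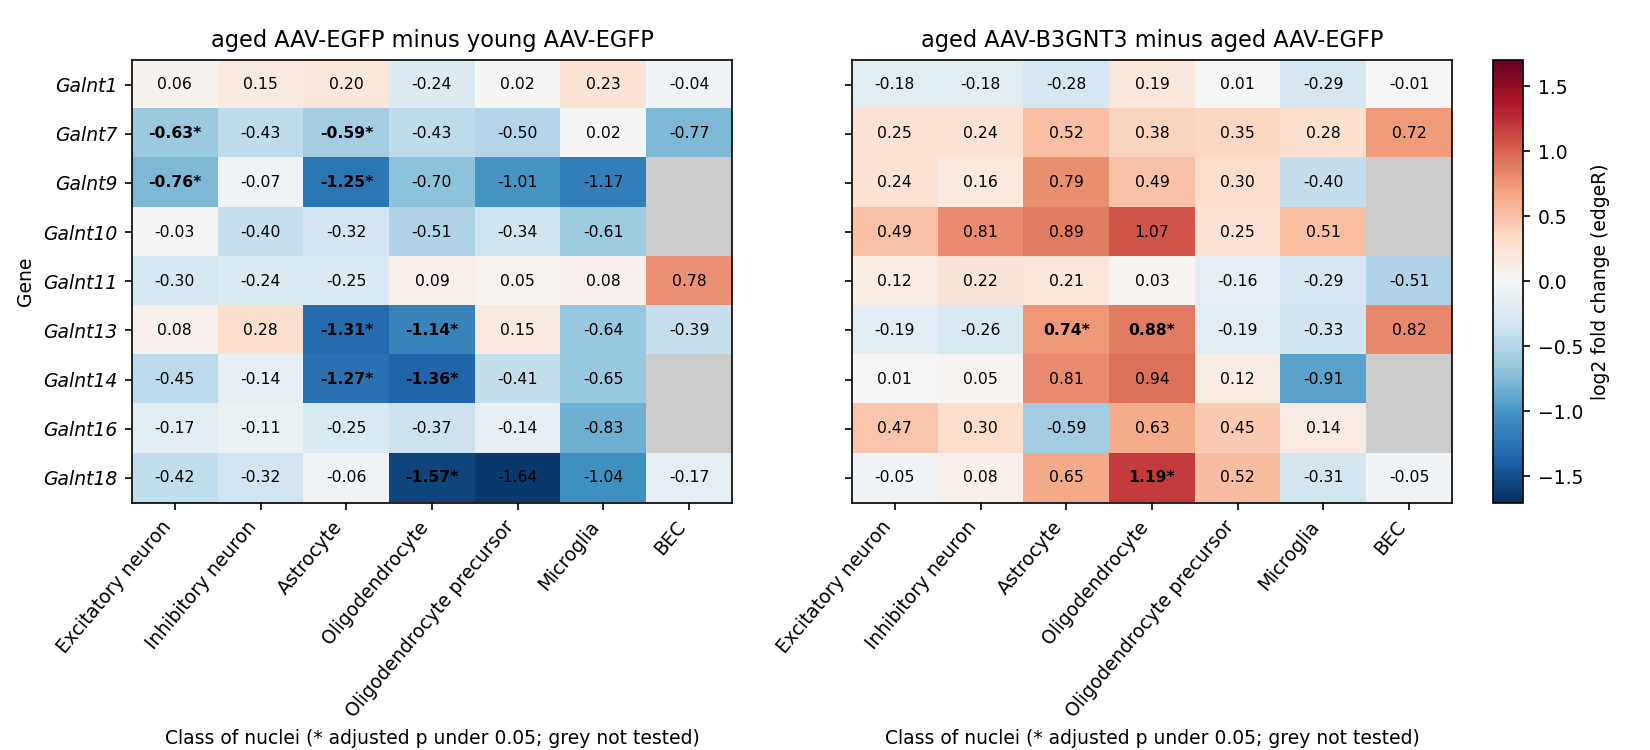
Log2 fold changes from edgeR for 9 members in 7 classes, for age (left) and for AAV-B3GNT3 in aged mice (right); colour and printed numbers give the change, an asterisk marks an adjusted p under 0.05, and grey cells were not tested. The 9 calls with age are all negative and lie in excitatory neurons, astrocytes and oligodendrocytes, and the 3 calls with treatment are positive and lie in astrocytes and oligodendrocytes. Of all gene and class pairs, 9.02% were called with age and 3.08% with treatment, in either direction.

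In neurons no member was called for treatment. In excitatory neurons 0 of 9 passed by edgeR (2 at an unadjusted p under 0.05, 1 by DESeq2), beside 0.927% of all genes called higher, and in inhibitory neurons 0 of 9 (1 at an unadjusted p under 0.05, 1 by DESeq2), beside 0.0981%. Of 16942 genes tested in excitatory neurons, 3924 were at an unadjusted p under 0.05 and DESeq2 called 1356. Of 14269 in inhibitory neurons these counts were 2636 and 370. Galnt9 in excitatory neurons was at 134, 158 and 97.0 CPM with AAV-B3GNT3 (log2 fold change 0.24, SE 0.18) and Galnt7 at 63.1, 74.5 and 62.0 CPM (0.25, SE 0.14), so that both groups of aged mice overlapped. In upper-layer neurons Galnt9 was at 65.3, 89.2 and 53.2 CPM, above all 3 aged AAV-EGFP libraries, with a change of 0.78 (SE 0.18, adjusted p = 0.0755 by edgeR and 0.00734 by DESeq2). For treatment in this subclass, edgeR called 0 of 13879 genes and DESeq2 called 344, and the share of all genes without overlap was not determined. Over the 9 subclasses 0 of 81 pairs were called by edgeR (24 at an unadjusted p under 0.05, 3 by DESeq2), beside 0.709% of gene and subclass pairs called by edgeR in either direction. Of all 97862 gene and subclass pairs, 15803 were at an unadjusted p under 0.05 and DESeq2 called 1663.

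Both DESeq2 calls in the neuron classes were of Galnt10, as were 2 of its 3 calls in subclasses, in the Kcnmb2/Btbd11 interneuron cluster and upper-layer neurons. Galnt10 in excitatory neurons was at 26.2, 24.7 and 20.4 CPM with AAV-EGFP and 36.8, 37.3 and 26.4 CPM with AAV-B3GNT3 (log2 fold change 0.49, SE 0.15, adjusted p = 0.0810 by edgeR). In inhibitory neurons it was at 34.4, 27.2 and 17.0 CPM against 48.2, 54.2 and 33.7 CPM (0.81, SE 0.23, adjusted p = 0.111 by edgeR), where the highest control library was above the lowest treated one. Its fitted change was positive in all 6 classes tested, from 0.25 to 1.07, without a call by edgeR in any. This was not particular to Galnt10, since Galnt7 was fitted higher in all 7 classes tested, from 0.24 to 0.72. Over all members and classes, 41 pairs were fitted higher and 18 lower, and the classes come from the same libraries. Genes on the opposite strand overlap Galnt10, as they do Galnt11 and Galnt16, and whether counting used strand is not given in the sources used here.

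Oligodendrocyte precursors and microglia (0 of 9 members each) and BECs (0 of 5) gave no call for treatment by edgeR or DESeq2 and none at an unadjusted p under 0.05, and 0% of all genes were called higher in each of these classes. Lower calls were of 12 genes in BECs and of 0 in the others. In BECs, which carry the transgene, Galnt1 differed by -0.01 (SE 0.27), Galnt18 by -0.05 (SE 0.32), Galnt11 by -0.51 (SE 0.40), Galnt7 by 0.72 (SE 0.45) and Galnt13 by 0.82 (SE 0.49) on the log2 scale. Of the Galnt13 UMIs in BECs, 80% were within the estimate for free RNA, against 19% for Galnt1 and 38% for Galnt18.

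Of the 9 other family members, 5 are given for their highest class. Galnt15 was counted almost only in BECs, at 50.1 ± 16.6 CPM against at most 2.48 CPM in any other class mean, and did not pass with age (0.47, SE 0.42) or treatment (0.33, SE 0.40). Galnt6 was at 152 ± 26.7 CPM in oligodendrocytes and at most 11.4 CPM elsewhere. Galnt3, known for protecting the hormone FGF23 from cleavage, was at 109 ± 10.9 CPM in oligodendrocyte precursors. Galnt17 reached 899 ± 230 CPM in pericytes, and Galntl6 5409 CPM in inhibitory neurons.

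With age, 6 of 30 pairs of the 9 genes and classes were called, 1 higher and 5 lower, beside 9.02% of all gene and class pairs called in either direction. Galnt5 rose in oligodendrocytes from 14.4, 30.9 and 30.2 CPM in young to 76.9, 99.4 and 92.7 CPM in aged AAV-EGFP mice (log2 fold change 1.86, SE 0.36, adjusted p = 0.0041), and 3% of its UMIs there were within the free RNA estimate. With AAV-B3GNT3 it was at 28.7, 25.9 and 70.4 CPM (-1.09, SE 0.34, adjusted p = 0.0556). The falls were of Galnt3 in excitatory neurons (-0.65, adjusted p = 0.0465) and oligodendrocytes (-1.26, adjusted p = 0.0415), of Galntl6 in astrocytes (-1.16, adjusted p = 0.0016) and oligodendrocytes (-1.11, adjusted p = 0.0025), and of Galnt17 in astrocytes (-1.53, adjusted p = 0.0009). For the glial falls, 91 to 100% of the UMIs were within the free RNA estimate. The 2 calls of 30 with treatment, beside 3.08% of all pairs, were rises of Galnt17 in astrocytes (0.95, adjusted p = 0.0253) and Galntl6 in oligodendrocytes (0.77, adjusted p = 0.0234), which lie in the same range of free RNA.

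The enzymes and substrates that follow are read against those same shares of all pairs, 9.02% with age and 3.08% with treatment. With treatment, 15126 of all 80698 gene and class pairs were at an unadjusted p under 0.05 and DESeq2 called 4055. Of 16 pairs of core enzyme and class, Gcnt4, a core 2 branching enzyme, alone passed with age, lower in oligodendrocytes (-1.87, adjusted p = 0.0195), and none passed for treatment (4 at an unadjusted p under 0.05, 0 by DESeq2). Of 57 pairs of sialyltransferase and class, 2 rose and 4 fell with age. In excitatory neurons St3gal4 (-0.99, adjusted p = 0.0300) and St3gal2 (-0.40, adjusted p = 0.0495) fell and St6galnac1, at low counts, rose (2.94, SE 0.76, adjusted p = 0.0269). St3gal1 rose in oligodendrocytes (1.33, adjusted p = 0.0116), where St6galnac5 fell (-1.17, adjusted p = 0.0179), and St6galnac3 fell in astrocytes (-0.90, adjusted p = 0.0244) and rose there with AAV-B3GNT3 (0.91, adjusted p = 0.0412), the only one of the 57 pairs called for treatment.

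Of 23 pairs of donor supply gene and class, Galk2 rose in excitatory neurons (0.33, adjusted p = 0.0405), Slc35a2, the UDP-galactose carrier, rose in astrocytes (0.70, adjusted p = 0.0406) and Uap1, which makes UDP-N-acetylhexosamines, fell in excitatory neurons (-0.36, adjusted p = 0.0445), with no call for treatment (2 pairs at an unadjusted p under 0.05, 0 by DESeq2). The calls among 57 pairs of mucin-domain glycoprotein and class all lay in oligodendrocytes. Lamp1 (1.03, adjusted p = 0.0018), Mog (0.71, adjusted p = 0.0035) and Mcam (0.63, adjusted p = 0.0274) rose with age and Dag1 fell (-0.61, adjusted p = 0.0258). With AAV-B3GNT3, Lamp1 (-0.92, adjusted p = 0.0054) and Mog (-0.59, adjusted p = 0.0164) fell and Dag1 rose (0.60, adjusted p = 0.0443). Mog, an immunoglobulin-domain protein of myelin, is no typical mucin-domain protein and is also 1 of the 6 oligodendrocyte markers, whose summed level in this class was lower with AAV-B3GNT3, as given before. In neuron subclasses the lists gave 6 calls with age, of Galntl6, St6galnac5, Galk2, St3gal2, St3gal4 and Cd34, among 28 pairs of other family members, 66 of sialyltransferases, 33 of donor supply genes, 48 of mucin-domain glycoproteins and 16 of core enzymes, beside 4.73% of all gene and subclass pairs. None was called with treatment. At an unadjusted p under 0.05, treatment had 8 pairs of other family members, 12 of sialyltransferases, 3 of donor supply genes, 4 of mucin-domain glycoproteins and 0 of core enzymes, and DESeq2 called 1, of an other family member. Over all 97862 gene and subclass pairs, 15803 were at an unadjusted p under 0.05 and DESeq2 called 1663.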

How the data were processed

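Nuclei of pooled cortex and hippocampus were profiled by the authors with 10x Genomics 3′ chemistry (version 3.1). The deposited matrices hold raw UMI counts per gene and nucleus, with no removal of free RNA or doublets. Reads had been aligned to mm10 (GRCm38) with Cell Ranger, version 4.0.0 per the submitters' processing notes and 7.2.0 per the file headers; whether introns were counted is not given in the sources used here.

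Barcodes were required to have between 200 and 5000 genes and no more than 10% of UMIs from mitochondrial genes, and 5.07 to 8.21% of barcodes per library were removed as likely doublets at a preset rate. Counts were reduced with 2000 variable genes, the GalNAc transferase family left out, to 15 principal components. Nuclei were joined to 20 neighbours and clustered (Leiden, resolution 0.3 for classes and 1 for neuron subclasses). A cluster was named when at least 3 markers of 1 list passed. After the clusters were seen, 2 rules were added that left unnamed those with both glutamatergic and GABAergic markers, and those with a mean doublet score over 0.5 and no own marker among their leading genes. Any 2 libraries shared 7 to 37 barcodes, and replicate libraries differed beyond sampling noise (chi-square per degree of freedom of at least 14.4).

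Counts were summed per library and class. Genes passing filterByExpr (minimum count 10) were fitted with edgeR 4.0.16 (TMM scaling, quasi-likelihood test, all 9 libraries in 1 fit per class), with p-values two-sided, adjusted by the Benjamini-Hochberg method within a class, and a threshold of 0.05. In all, 7 classes and 9 neuron subclasses were tested. CPM values were computed from these sums, and class orders used log2(CPM + 1) with an exact test over 512 sign flips. Free RNA was estimated per class and library as the profile of all barcodes, scaled by the lowest relative level among marker lists of other abundant classes. DESeq2 1.42.0, RLE size factors, no low-count filter, other clustering and the settings of the closing section were alternatives. The edgeR step was tested on simulated data. Replicates were separate mice. Intervals and floors cover counting error only.

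The members, gene lists and tests were chosen with earlier results of these data known. All 10 members are named, other family and pathway genes where called, and up to 3 genes most like each member, of which some are not reported here. Positions are 1-based, from GENCODE release 21 (vM21), which matched 31011 of 31053 genes. No protein sequences were used here.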

Additional observations from a re-analysis of the deposited data

Results flagged for a closer look

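For Galnt11, Galnt1 and Galnt13, every library of a group moved one way in some classes and the opposite way in others. The share of all genes that do so was not determined, so no trait of these members can be read from it. None of these differences between classes was tested, and none of the single changes passed the threshold except those of Galnt13 in astrocytes and mature oligodendrocytes. With age, Galnt11 was higher in BECs (log2 fold change 0.78, on 7 to 18 UMIs per library) and lower in excitatory neurons (-0.30) and inhibitory neurons (-0.24).

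With AAV-B3GNT3, Galnt1 was lower in excitatory neurons (-0.18), inhibitory neurons (-0.18) and microglia (-0.29) and higher in oligodendrocytes (0.19).

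With AAV-B3GNT3, Galnt13 was higher in astrocytes (0.74) and oligodendrocytes (0.88), where 99 to 100% of its UMIs lay within the free RNA estimate, and lower in inhibitory neurons (-0.26) and oligodendrocyte precursors (-0.19), where 6% and 13% did.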

How the results depend on the processing

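No called change of a member reversed under any alternative in which it could be tested. With free RNA subtracted, the glial calls other than that of Galnt7 in astrocytes with age could not be tested. Against 9 calls with age in classes, there were 4 without doublet removal, 3 with free RNA subtracted and 4 to 14 when single libraries were left out. The 9 calls were of 59 pairs, beside 9.02% of all gene and class pairs called in either direction. The 7 calls with age in subclasses became 20 without a filter on low counts, and 2 to 18 without single libraries. The 3 calls with treatment in classes became 7 by DESeq2, 9 without a filter on low counts, 1 with only the groups compared, 0 without doublet removal, 0 with free RNA subtracted and 0 to 7 without single libraries. The 0 calls with treatment in subclasses became 3 by DESeq2, 8 without a filter on low counts, 4 with finer clustering and 0 to 7 without single libraries. Of 10 members, 6 had a highest class that exceeded the next past the threshold, and 3 did with free RNA subtracted and 4 with finer clustering (6 to 7 without single libraries). The cause of these shifts was not tested. Apart from DESeq2, the share of all genes called under each alternative is not given here. The shifts in calls can therefore not be read as a trait of the members. Leaving out aged AAV-EGFP replicate 1 added 22 calls and lost 2 over classes, subclasses and both comparisons, and leaving out aged AAV-EGFP replicate 3 added 0 and lost 13.

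Deviations of same-numbered libraries correlated between -0.52 and 0.30, over 0.1 in 32 of 144 pairs. Every pair of 2 groups was over 0.1 only for young and aged AAV-EGFP in BECs (0.18, 0.10 and 0.23), where no member was called with the block either, and elsewhere the numbers did not pair the libraries. With the replicate number as a block there were 9 and 5 calls in classes, with age and treatment, and 9 and 0 in subclasses.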

Other observations

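Galnt18 and Galnt16 spread widely between astrocyte sums of the same group. Galnt18 was at 223, 262 and 469 CPM in young AAV-EGFP, 149, 298 and 461 CPM in aged AAV-EGFP and 442, 665 and 317 CPM in aged AAV-B3GNT3 mice, resting on 268 to 2689 UMIs per library. Galnt16 was at 155, 110 and 82.3 CPM, 170, 73.7 and 53.1 CPM, and 70.8, 65.8 and 57.0 CPM. Aged AAV-EGFP replicate 1 had the lowest Galnt18 and the highest Galnt16, and neither gene was called in astrocytes for age or treatment.

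Gm20388, whose annotated span covers all but the last bases of Galnt2, rose with age in astrocytes (log2 fold change 0.66, SE 0.17, adjusted p = 0.0257, edgeR) and oligodendrocytes (0.62, SE 0.15, adjusted p = 0.0109) and fell with AAV-B3GNT3 in oligodendrocytes (-0.50, SE 0.15, adjusted p = 0.0462). Whether Galnt2 molecules are among these counts could not be tested.

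In layer 5 extratelencephalic neurons Galnt10 had a log2 fold change of 0.91 with age (SE 0.25, adjusted p = 0.0529), while in layer 6 corticothalamic neurons it was at -0.59 (SE 0.19, adjusted p = 0.0524). Neither value passed the threshold, and the difference between the subclasses was not tested.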
